A study of Mus musculus with 2 samples.

Results

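Genes of ATP-dependent chromatin remodelling complexes other than TIP60/p400 were examined in mouse embryos at embryonic day 8.5. The set was a fixed list of 38 genes, of which 36 were among the 18069 genes that had an array probe of their own. Probes were matched to the list by symbol, after symbols had been updated by gene identifier. The list comprised 13 SWI/SNF genes, 5 ISWI genes, 16 genes of the CHD family and its NuRD complex, the ATPases Ino80 and Srcap, and Hells and Atrx, 2 further ATPases of the SNF2 family. Total RNA of whole embryo proper was measured on 1 array from a pool of 42 wild-type embryos and on 1 array from a pool of 45 litter-matched mDom-/- embryos. mDom (mDomino, p400) is the submitters' name for Ep400, which encodes the ATPase of the TIP60/p400 complex. The labels give neither the structure of the mutant allele nor the strain or sex of the embryos. The comparison shows how transcripts of the other remodellers read in 1 pool of mDom-/- embryos beside 1 pool of wild-type embryos.

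Remodelling ATPases use ATP to slide, space, evict or exchange nucleosomes. SWI/SNF (BAF and PBAF) complexes open chromatin at enhancers and promoters, ISWI complexes space nucleosomes in regular arrays, and NuRD couples a CHD remodeller to histone deacetylases. INO80 and SRCAP both act on the histone variant H2A.Z. TIP60/p400 also acts on H2A.Z and shares subunits with SWI/SNF, INO80 and SRCAP. Subunit choice in SWI/SNF changes as embryonic cells take up heart or neural fates.

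Intensities are given in units of each array's median, and differences as the log2 ratio of mDom-/- over wild-type. A probe had to exceed a floor of 0.541 array medians on at least 1 array to be compared. There was 1 array per group, so no value has a replicate error, no test was possible, and genes were described by whether they were at least 1.5-fold or at least 2-fold apart. A lower reading from bulk RNA can come from fewer cells of a type or from less RNA per cell, which cannot be told apart here. The internal yardstick was the spread between probes of the same gene: a log2 ratio had an SD of 0.25 over 1302 genes for which 2 probes were above the floor in both pools, and of 0.18 over the 465 genes whose probes both had a mean intensity of at least 4. That SD covers disagreement between probes on the same 2 arrays. It leaves out error that the probes of an array share, and the variation between pools. A difference between the log2 ratios of 2 genes or 2 probes holds the error of both, so its SD is larger.

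The array gave no check of the labels from the targeted gene, since both Ep400 probes were under the floor in both pools, at 0.215 and -0.029 for one probe and at 0.470 and 0.071 for the other (wild-type first). Markers of the embryo proper were present: Foxc2, a somite gene, read 51.6 and 55.0 on the wild-type and mDom-/- arrays, and Myl7, a heart muscle gene, 354.4 and 374.5. Of 8 trophoblast and decidua markers 5 had a probe, and Tpbpa and Cts8 were under the floor on both arrays. The 3 compared were above the floor on both: Prl8a2 read 11.1 and 12.3, Hand1 4.26 and 4.77, and Ascl2 2.10 and 2.97 (wild-type first). Summed intensities over the compared markers went from 744.9 to 657.4 for heart muscle (9 genes), from 61.9 to 42.1 for neural tube (9 genes), from 102.7 to 85.1 for endothelium (8 genes), from 350.8 to 40.9 for primitive red cells (6 genes), from 97.4 to 100.04 for somite (8 genes), from 17.4 to 20.0 for trophoblast and decidua (3 genes) and from 677.1 to 868.1 for visceral endoderm and yolk sac (9 genes). Such sums follow the brightest probes: 5 of the 9 visceral endoderm and yolk sac genes and 5 of the 8 somite genes lay below 0, with median log2 ratios of -0.13 and -0.04. The red cell sum was carried by Hbb-y (133.8 to 5.12) and Hba-x (199.9 to 22.4). Alas2 was 2.22-fold lower, Rhag and Epb42 had log2 ratios of -0.01 and 0.45, and Slc4a1 had a bound of -0.06. The part of these tissues in the remodeller values was not tested.

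Of the 38 remodeller genes, 36 were compared and 35 were measured above the floor on both arrays. Pbrm1, a PBAF subunit, and Chd7, an ATPase needed in neural crest, had no probe of their own. Smarca1 and Baz1a, both of the ISWI group, read lower in mDom-/- embryos by at least 1.5-fold. That is 2 of 36 genes, where 4.35% of all 13137 compared genes were at least 1.5-fold lower. No remodeller gene was at least 1.5-fold higher, against a background of 4.09%. Of the 35 genes measured on both arrays none was 2-fold apart in either direction, and Atrx, the other compared gene, has only a bound of at least 1.19-fold lower. Of all compared genes 0.929% were at least 2-fold lower and 0.845% at least 2-fold higher. The median log2 ratio of the 36 genes was -0.06, compared with -0.00361 over all compared genes. In all, 25 of the 36 lay below 0 and 11 above, compared with 50.5% of all compared genes below 0. Over the other scalings, between 22 (75th percentile scaling) and 26 (loess) of the 36 lay below 0, and 29 did with the mean over probes or the dimmest probe. Of the 35 genes measured on both arrays, 30 (85.7%) were less than 1.2-fold apart, compared with 68.5% of the 11926 genes so measured.

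**Figure D1:**
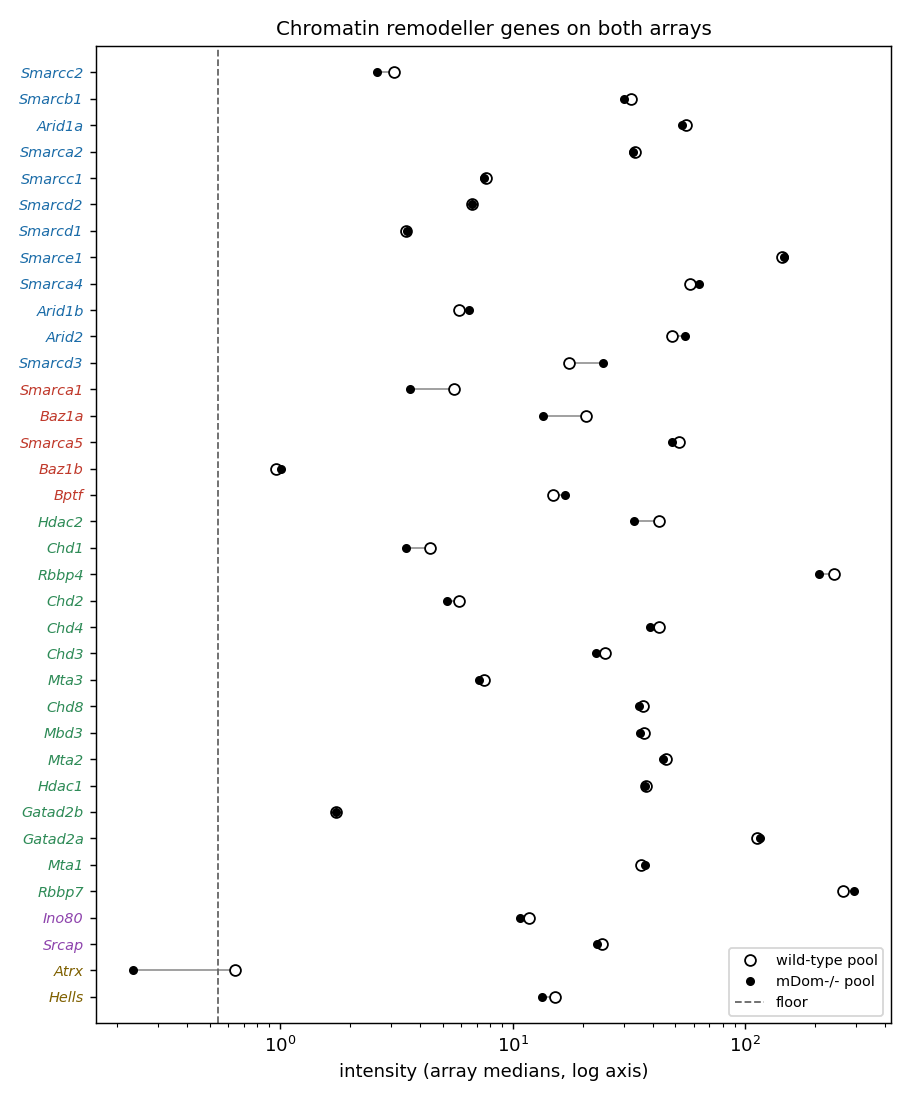
Intensity of the 36 compared remodeller genes on the wild-type array (open circles) and the mDom-/- array (filled circles), in array medians on a log axis, with gene names coloured by complex and the floor of 0.541 as a dashed line; each gene is shown by its brightest probe, and levels of different probes are not comparable. The pair of points lies close together for most genes, with visible gaps for Smarca1, Baz1a and Smarcd3, and Atrx is above the floor on the wild-type array only.

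These genes were mostly bright, which bears on the spread, because dim genes scatter more. Of the 35 genes measured on both arrays, 20 were among the brightest 25% of all genes measured on both. The median absolute log2 ratio was 0.09 over those 20 genes and 0.13 over all 2982 genes of that range. In it 13 of the 20 remodeller genes (65.0%) and 44.3% of all genes lay below 0. The 5 remodeller genes between the 25th and 50th percentiles of brightness had a median log2 ratio of -0.25, compared with -0.02 over all 2981 genes of that range. Their median absolute log2 ratio was 0.25, wider than the 0.17 over all genes of that range. It was 0.13 for the 8 remodeller genes between the 50th and 75th percentiles (0.15 over all genes) and 0.04 for the 2 in the dimmest 25% (0.23 over all genes).

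**Figure D2:**
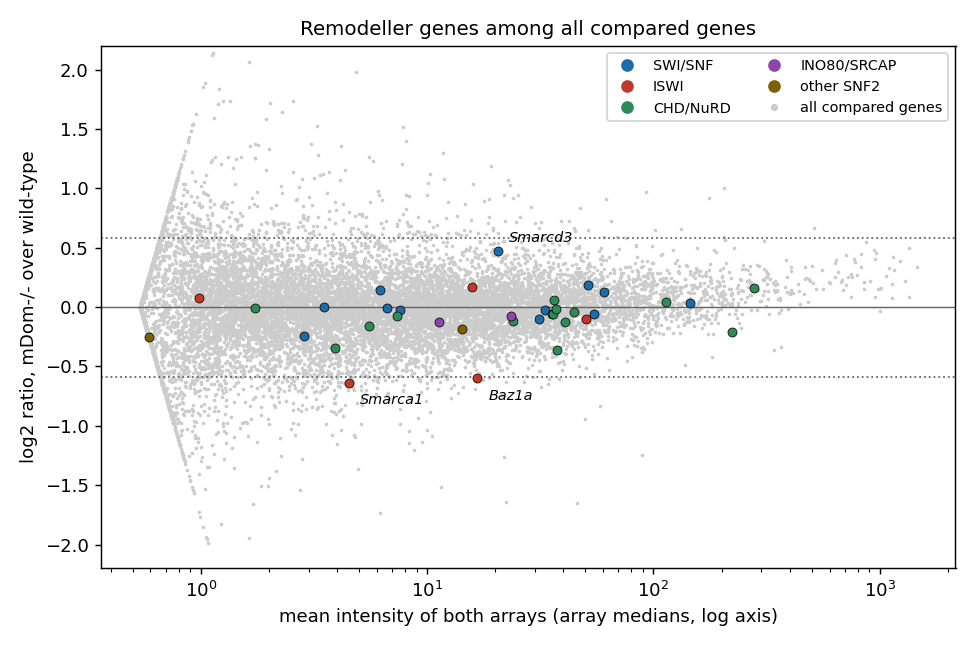
Log2 ratio of mDom-/- over wild-type against mean intensity of both arrays (array medians, log axis) for all compared genes (grey) and the 36 remodeller genes (coloured by complex), with dotted lines at 1.5-fold; 18 of the 13137 genes lie beyond the plotted range of 2.2 log2 units. The grey cloud narrows with brightness, and Smarca1 and Baz1a lie at its lower side, just past the 1.5-fold line.

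The ISWI group held both genes past the 1.5-fold rule. ISWI has paralogous ATPases, Smarca5 (SNF2H) and Smarca1 (SNF2L), each with a set of partner subunits. The promoter stretches of both are shown here because the ATPases are paralogues whose readings differed. They are the 200 bases before the RefSeq gene start in GRCm38.p6, read 5′ to 3′ on the gene's strand, the minus strand for both genes, at chrX:47892614-47892813 for Smarca1 and chr8:80739460-80739659 for Smarca5. Capitals mark the 8 bases TCTCGCGA, a motif chosen after the sequences were seen.
Smarca1: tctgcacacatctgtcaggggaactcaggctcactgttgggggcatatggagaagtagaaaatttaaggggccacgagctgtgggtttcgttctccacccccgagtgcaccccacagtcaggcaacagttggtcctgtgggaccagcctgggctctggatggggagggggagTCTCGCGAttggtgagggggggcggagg
Smarca5: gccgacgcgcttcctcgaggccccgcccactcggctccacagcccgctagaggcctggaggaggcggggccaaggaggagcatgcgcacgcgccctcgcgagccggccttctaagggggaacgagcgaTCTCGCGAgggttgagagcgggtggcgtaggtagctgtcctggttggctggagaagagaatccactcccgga
Both stretches held TCTCGCGA, which began 28 bases before the start in Smarca1 and 72 bases before it in Smarca5, and 0.798% of all 32851 promoter windows in the table held it on either strand within the same 200 bases. Among the remodeller genes, 29 of 38 had an entry in the table, and TCTCGCGA or its reverse complement was also found in that of Hells. On either strand, Smarca1 also held CCAAT (29.3% of all windows) and Smarca5 did not, both held GGGCGG (31.0%), and neither held TATAAA (9.96%). The Smarca1 stretch had 6 CpG dinucleotides and 60.5% G plus C, and that of Smarca5 21 and 69.0%, compared with medians of 5 and 53.0% over all windows.

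Smarca1, the ISWI ATPase best known from neural progenitors and from the NURF complex, read 5.62 on the wild-type array and 3.62 on the mDom-/- array. This was 1.56-fold lower, a log2 ratio of -0.64, from its only probe. Of the 1000 compared genes nearest to it in brightness, 4.50% were at least 1.5-fold lower. Its reading on the mDom-/- array was well above the floor, so the ratio is a measured value and not a bound.

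Smarca5, the more widely used ISWI ATPase, had 3 probes above the floor. The brightest read 51.9 in wild-type and 48.4 in mDom-/- embryos, a log2 ratio of -0.10. Its other probes read 42.5 and 43.0 (0.01) and 23.8 and 18.7 (-0.34), so they spanned 0.36 on the log2 scale, and the remaining probe was under the floor on both arrays. The log2 ratio of Smarca1 was 0.537 below that of Smarca5 by its brightest probe.

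Baz1a (ACF1), which pairs with Smarca5 in the nucleosome-spacing complexes ACF and CHRAC, read 20.6 in wild-type and 13.6 in mDom-/- embryos. This was 1.52-fold lower, a log2 ratio of -0.60. Its second probe read 12.9 and 7.78, which was 1.66-fold lower, so both probes were past the 1.5-fold rule, and they differed by 0.13 on the log2 scale. Of the 1000 compared genes nearest to Baz1a in brightness, 0.6% were at least 1.5-fold lower. The call was at the edge of the rule: with 3 other scalings its brightest probe had a log2 ratio of -0.58, just inside 1.5-fold.

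The remaining ISWI subunits read alike on both arrays. Baz1b (WSTF), which partners Smarca5 at replicating chromatin, read 0.960 and 1.01, a log2 ratio of 0.07 from a dim probe. Bptf, the large subunit of NURF, read 14.9 and 16.7, a log2 ratio of 0.17. Baz1b was thus 0.673 above Baz1a on the log2 ratio scale. The median log2 ratio over the 5 ISWI genes was -0.10, with 3 of them below 0.

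Neural tube markers were compared beside Smarca1, since this ATPase is well known from neural progenitors. Of 9 compared neural tube markers, 8 lay below 0 and 4 were at least 2-fold lower, compared with 50.5% and 0.929% of all compared genes. Neurog2, among those 4, read 1.49 and 0.421 and was above the floor in wild-type only, so its value is a bound. Zic1 went from 11.3 to 3.39 and En2 from 4.66 to 1.61, while Pax3 had a log2 ratio of -0.01 and Nes -0.12. Sox2 was under the floor on both arrays. The part of neural tissue in the Smarca1 value was not tested. Smarca1 lies on chromosome X, with Atrx and Rbbp7. Among transcripts that follow the sex of embryos, Xist went from 7.68 to 5.78, Eif2s3y, on chromosome Y, from 4.10 to 4.89, and Kdm5d, also on Y, from 3.64 to 3.79. The part of the embryos' sex in the Smarca1 value was not tested.

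**Figure D3:**
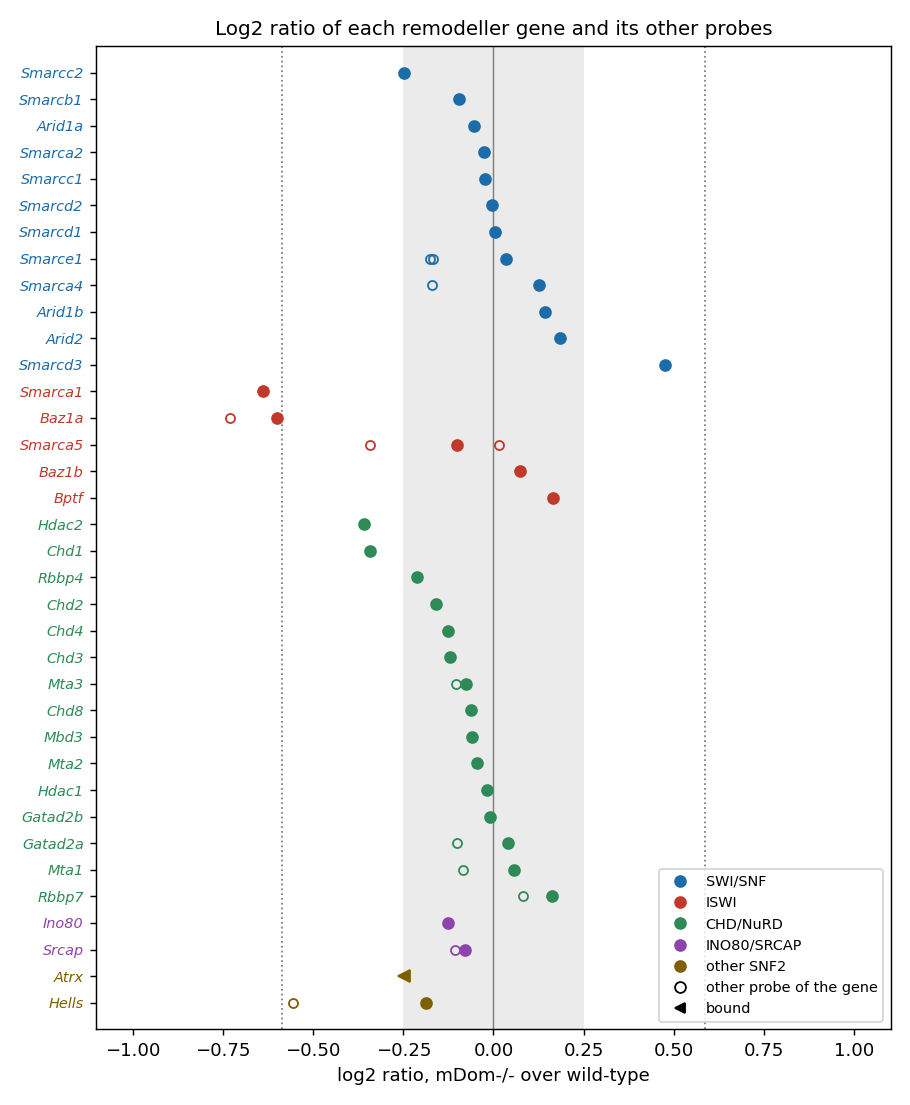
Log2 ratio of mDom-/- over wild-type for each remodeller gene, grouped and coloured by complex, with the brightest probe filled, other compared probes open, and a triangle for Atrx, which is a bound. Grey shading marks the probe SD of 0.25 on either side of 0 and dotted lines mark 1.5-fold; both probes of Baz1a lie past the left line, and one of the Hells probes lies near it.

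SWI/SNF transcripts read almost the same in both pools. Of the 12 compared genes, 6 lay above 0 and 6 below (8 below with the mean over probes), and 11 were less than 1.2-fold apart. The log2 ratios ran from -0.25 (Smarcc2) to 0.48 (Smarcd3). The ATPase gene Smarca4 (BRG1) read 58.0 in wild-type and 63.2 in mDom-/- embryos, a log2 ratio of 0.12, and its second, dim probe had -0.17. Smarca2 (BRM), the alternative ATPase, read 33.4 and 32.8, a log2 ratio of -0.03. The core subunit genes Smarcb1 (SNF5), Smarcc1 (BAF155) and Smarce1 (BAF57) had log2 ratios of -0.10, -0.02 and 0.03, with the other measured probes of Smarce1 between -0.18 and -0.17. Smarcc2 (BAF170), the partner of Smarcc1 in the complex core, read 3.10 and 2.61.

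Smarcd3 (BAF60C), the SWI/SNF subunit known for its part in heart and muscle development, had a higher log2 ratio than its paralogues. It read 17.5 in wild-type and 24.3 in mDom-/- embryos, which was 1.39-fold higher, a log2 ratio of 0.48 from its only probe and short of the 1.5-fold rule. Its paralogues Smarcd1 and Smarcd2 read 3.49 and 3.50, and 6.68 and 6.66, on the wild-type and mDom-/- arrays. The log2 ratio of Smarcd3 was thus 0.471 above that of Smarcd1 and 0.481 above that of Smarcd2. This contrast was singled out after its values were seen. The heart muscle markers went the other way, with 7 of 9 below 0 and a median log2 ratio of -0.48. Myl2, a ventricular light chain gene, went from 19.6 to 6.84, while Myl7 and the cardiac factor gene Nkx2-5 had 0.08 and 0.04, and Myh6 was under the floor on both arrays. The part of heart tissue in the Smarcd3 value was not tested.

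The ARID subunits, which tell BAF from PBAF, lay on both sides of 0. Arid1a and Arid1b, the alternative BAF subunits, had log2 ratios of -0.06 and 0.14, from 55.5 and 53.4 and from 5.90 and 6.51. Arid2, the corresponding PBAF subunit, read 48.4 and 55.0, a log2 ratio of 0.18. These 3 ratios lay within the probe SD of 0.25.

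Genes of the CHD family and NuRD lay slightly below 0 for the most part. Of 15 compared genes, 12 lay below 0 and 3 above, with a median log2 ratio of -0.06 and a range from -0.36 to 0.16. With 75th percentile scaling 10 of the 15 lay below 0, and with loess 14. The NuRD ATPase Chd4 read 42.4 in wild-type and 38.8 in mDom-/- embryos, a log2 ratio of -0.13, and its paralogue Chd3 24.9 and 22.9, a log2 ratio of -0.12. These ATPases differed by 0.00484 in their log2 ratios. Chd8, an ATPase that binds beta-catenin, had -0.06. Chd1, which travels with elongating RNA polymerase, read 4.39 and 3.47, which was 1.27-fold lower, a log2 ratio of -0.34, and Chd2 read 5.86 and 5.25, a log2 ratio of -0.16.

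Among the NuRD subunits, the deacetylase and histone-binding paralogues differed most within their pairs. Hdac2 read 42.6 in wild-type and 33.2 in mDom-/- embryos, 1.28-fold lower, a log2 ratio of -0.36, while Hdac1 read 37.4 and 36.9, a log2 ratio of -0.02. Rbbp4 read 240.5 and 207.6, a log2 ratio of -0.21, while Rbbp7 read 263.0 and 294.3, a log2 ratio of 0.16, with a second probe at 0.08. Loess scaling moved Rbbp4 to -0.38 and Rbbp7 to -0.02, so the direction of Rbbp7 depended on the scaling. The differences within these pairs were 0.343 and 0.375 on the log2 ratio scale.

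The other NuRD genes were within 0.10 of 0 on the log2 scale. Mbd3, the methyl-CpG-binding-domain subunit, had -0.06. The MTA scaffold genes Mta1, Mta2 and Mta3 had 0.06, -0.05 and -0.08, and the second probes of Mta1 and Mta3 had -0.08 and -0.10. Gatad2a and Gatad2b, which link MBD and CHD subunits, had 0.04 and -0.01, and the second probe of Gatad2a had -0.10. The signs of Mta1 and Gatad2a therefore differed between their probes.

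Ino80 and Srcap, the ATPases of the complexes nearest in function to TIP60/p400, had readings that were close between the pools. Ino80 read 11.8 in wild-type and 10.8 in mDom-/- embryos, a log2 ratio of -0.13. Srcap read 24.2 and 23.0, a log2 ratio of -0.08, and a dim second probe had -0.11. Of the subunits that these complexes or SWI/SNF share with TIP60, a list of 6 genes added later, Actl6a was the lowest, at 44.4 and 32.0 (-0.47), and the other 5 lay between -0.17 and 0.17.

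Hells (LSH), an SNF2 ATPase needed for DNA methylation at repeats, had 2 measured probes, which differed by 0.369 on the log2 scale. The brightest read 15.3 in wild-type and 13.4 in mDom-/- embryos, a log2 ratio of -0.19. A second read 3.83 and 2.60, a log2 ratio of -0.56, and the remaining probe was under the floor on both arrays. Atrx, which deposits histone H3.3 with Daxx, read 0.642 and 0.233 and was above the floor in wild-type only, so it was at least 1.19-fold lower. That bound was set by the floor. With the floor at the 25th percentile, 0.240 array medians, the mDom-/- reading was still under it, and the bound was a log2 ratio of -1.42. Daxx itself had 0.02.

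**Figure D4:**
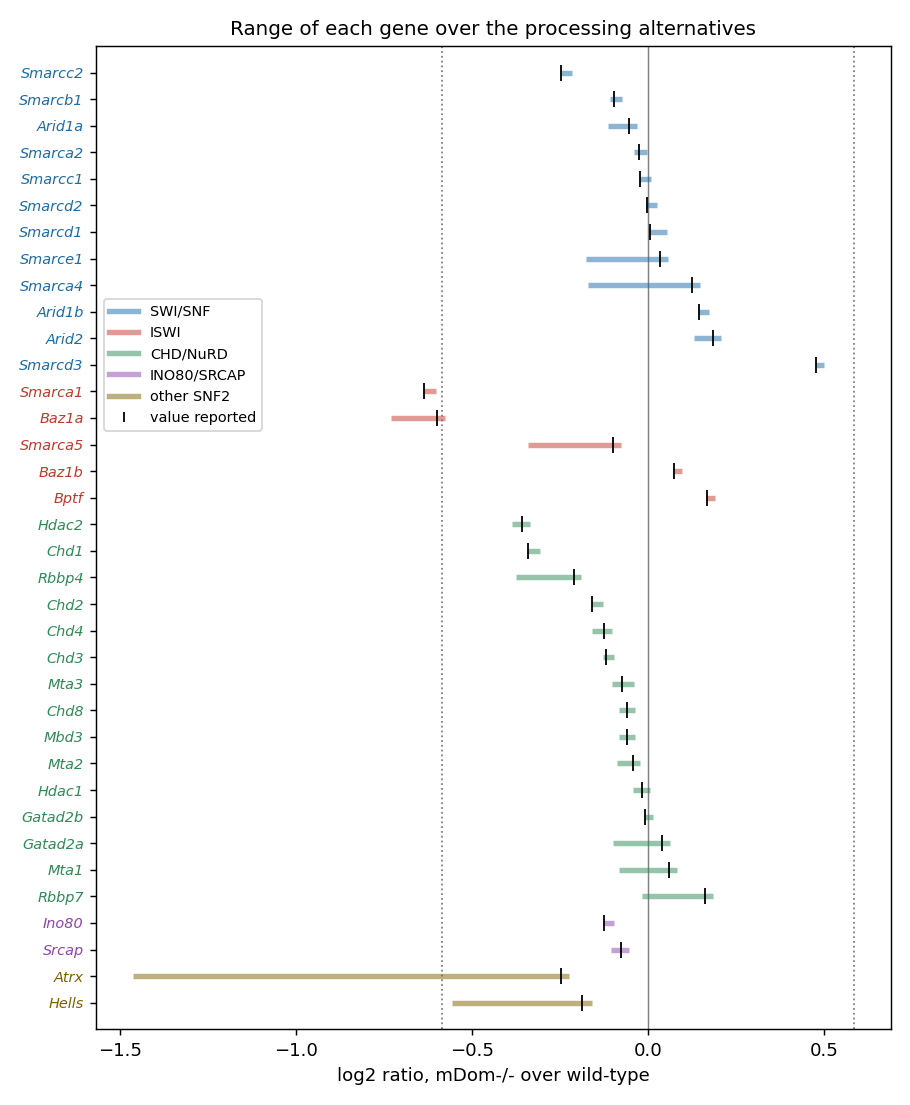
Range of the log2 ratio of mDom-/- over wild-type for each remodeller gene over 10 processing alternatives (bars, coloured by complex), with the reported value as a black tick and dotted lines at 1.5-fold. Smarca1, which only the scalings could move, stays past the left line, and Baz1a spans it. Atrx and Hells have the longest bars, from floor and probe choice.

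Other remodeller genes, 57 genes from a separate list of further subunits and SNF2 family ATPases, held no compared gene past the 1.5-fold rule. Of all compared genes, 4.35% were at least 1.5-fold lower and 4.09% at least 1.5-fold higher. Of the 57 listed genes, 48 were compared, and 22 lay above 0 and 26 below. Of the 48, 38 (79.2%) were less than 1.2-fold apart, Chd5 among them as a bound, compared with 65.9% of all compared genes. These shares were not matched for brightness. The median log2 ratio of the 48 genes was -0.02 and their range ran from -0.45 to 0.44. The ends of that range, named after their values were seen, were both SWI/SNF genes: Phf10, a PBAF subunit, read 36.5 in wild-type and 26.8 in mDom-/- embryos, and Dpf3, a BAF subunit of heart and muscle, read 1.198 and 1.622, a log2 ratio of 0.44, with a second probe at 0.21.

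Further ATPase genes of these families lay on both sides of 0. The CHD genes Chd6 and Chd9 had log2 ratios of -0.05 and -0.29, and Chd5 was above the floor in wild-type only, at 0.588 against 0.525. Smarcad1, which acts behind replication forks, had 0.09, and the fork-reversal enzymes Smarcal1 and Hltf had 0.04 and -0.26, with the second probe of Smarcal1 at -0.17. Shprh, named after its values were seen, had 0.19, and its second, dim probe read 0.625 and 0.972, a log2 ratio of 0.64. By their brightest probes, other ISWI partner genes (6 compared) ran from -0.14 (Pole3) to 0.07 (Baz2b), and none of them was as low as Baz1a. Other probes of Pole3, Baz2b and Rsf1 had -0.29, -0.35 and 0.26, and a further Baz2b probe gave a bound of -0.01. Baz2a was under the floor on both arrays. The partners Pole3 and Chrac1, histone-fold subunits that join Baz1a and Smarca5 in CHRAC, had -0.14 and -0.13, and were named after their values were seen.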

How the data were processed

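Each sample was 1 single-colour array with biotin-UTP label, and the image was analysed with the CodeLink System Software, per the labels. The deposited values were linear spot intensities, with medians of 1.05 in both columns. The authors' background correction, scaling and detection flags are, in the labels and files used here, not stated. A code for no value stood for 105 wild-type and 106 mDom-/- probes, which were left out.

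Of 36227 probes, 21615 had 1 gene symbol in the platform annotation, which named the genes. Symbols were updated through the RefSeq gene table of GRCm38.p6. Members had 54 probes of their own, 48 of them above the floor, and 5 probes shared with another gene were not used. Each array was divided by its median, raised to the higher of the 40th percentiles of both arrays and put on the log2 scale. A gene took its brightest compared probe by mean log2 intensity. All members were to be named with values, and the other genes by the rule of 1.5-fold or as listed ATPases. The members and lists were chosen with earlier results of these data known. Python 3.11.15, pandas 2.3.3 and statsmodels 0.14.6 were used, and the calculation was tested on simulated data. The 1 array per group limits the precision.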

Additional observations from a re-analysis of the deposited data

How the results depend on the processing

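The alternatives were no rescaling, 75th percentile scaling, quantile normalization, loess against brightness with a span of 0.3, the 25th percentile, the 60th percentile or nothing as the floor, a gene's mean over probes, its dimmest compared probe, and only genes above the floor on both arrays. No paired analysis was possible because each group had 1 array. Members at least 1.5-fold lower numbered 1 of 36 with 75th percentile scaling, quantile normalization and loess. That was Smarca1 alone, because Baz1a had a log2 ratio of -0.58 in each. Of all compared genes, 3.93%, 4.14% and 4.10% were as low in these settings. Members as low numbered 3 of 36 with the 25th percentile floor and with no floor, compared with 8.62% and 11.6% of all compared genes. Atrx joined Smarca1 and Baz1a there and was the 1 member at least 2-fold lower. The share of all genes at least 2-fold lower was not counted with those floors. The median of Hells and Atrx was -0.80 and -0.83 with those floors, and -0.40 with the dimmest probe. The ISWI median was -0.35 with the 60th percentile floor, which drops Baz1b, and -0.34 with the dimmest probe. The remaining 100 of 110 values of the counts and list medians moved by less than 0.1 on the log2 scale or, for counts, by at most 1.5 times. Smarca1 stayed between -0.64 and -0.60 over the scalings. The floors and probe rules could not move it, because its only probe was above every floor. Which genes have a measurable ratio is limited by signal over the floor: a floor at the 60th percentile left out Atrx, Baz1b and Gatad2b.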
